A study of Mus musculus with 16 samples.

Results

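The 36 genes described here encode antiviral effectors that interferons switch on: the proteins that bind viral RNA, degrade it, starve viruses of nucleotides, hold virions at the membrane or tag proteins with the ubiquitin-like modifier ISG15. They were taken as a list of symbols, and all 36 were found among the 55359 genes of the count tables. The counts come from whole ovary and whole kidney of female CBAF1 mice, wild type and 21 days old, all of which received 5 IU PMSG for 48 h and then 5 IU hCG for 13 h, a hormone sequence that makes follicles grow and then ovulate. One group per organ had PT-2385, an inhibitor of HIF-2α (the hypoxia-inducible factor encoded by Epas1), at 7.5 mg/kg into the peritoneum every 12 h over 4 days. The control group per organ had the vehicle, 5% DMSO in saline, on the same schedule. Each of the 4 groups (ovary vehicle, ovary PT-2385, kidney vehicle, kidney PT-2385) had 4 libraries. The labels number them 1 to 4, and do not say whether they came from separate animals or whether a number marks the ovary and kidney of 1 mouse, so p-values measure the spread between these libraries, which may be technical. The inhibitor reached the whole animal and both organs were sequenced whole, so neither the cells it acted on nor the cells that carried a transcript can be read from these counts.

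Type I and type III interferons bind receptors at the cell surface, whose kinases start a signal that assembles the complex ISGF3, with IRF9 as its DNA-binding part. ISGF3 binds a promoter sequence called the interferon-stimulated response element (ISRE) and turns on a shared set of target genes. Many cells keep those genes at a low level without infection, through small amounts of interferon and through unphosphorylated forms of the same complex. In the tissues of healthy mice such basal expression is known to keep cells ready for infection.

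The promoter sequences of the genes on which the results turn come first, since the ISRE is the sequence through which ISGF3 reaches its targets. RefSeq promoter windows (GRCm38.p6, from 250 bases before to 50 bases after the start of the transcript) were found for 28 of the 36 genes, in 32 windows, and the mice of this cross may differ from this reference. The ISRE core was searched as GAAANNGAAA on both strands, and stood in 15 of these 32 windows (46.9%) against 3.44% of all 32851 windows. By gene, 14 of 28 carried it. Of the 7 windows below, 3 belong to the genes with the lowest log2 fold changes in ovary (Ifit3b, Ifit3, Rsad2). Another 2 belong to genes whose response differed between the organs (Trim34a, Slfn5). The others belong to the gene with the smallest p in kidney (Gbp3) and the gene with the smallest change in ovary (Trim25). Cmpk2, whose response also differed between the organs, is not shown, and its window held no core. Whether the core goes with the size of a response was not tested. Capitals mark ISRE cores on either strand, and each sequence reads 5′ to 3′ along its gene.
Ifit3, chr19:34583279-34583578, plus strand: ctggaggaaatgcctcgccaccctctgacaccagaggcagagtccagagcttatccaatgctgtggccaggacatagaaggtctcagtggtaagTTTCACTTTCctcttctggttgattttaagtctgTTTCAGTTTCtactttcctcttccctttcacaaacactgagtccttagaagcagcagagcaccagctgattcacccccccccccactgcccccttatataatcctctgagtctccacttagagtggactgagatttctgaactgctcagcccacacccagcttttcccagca
Ifit3b, chr19:34607707-34608006, plus strand: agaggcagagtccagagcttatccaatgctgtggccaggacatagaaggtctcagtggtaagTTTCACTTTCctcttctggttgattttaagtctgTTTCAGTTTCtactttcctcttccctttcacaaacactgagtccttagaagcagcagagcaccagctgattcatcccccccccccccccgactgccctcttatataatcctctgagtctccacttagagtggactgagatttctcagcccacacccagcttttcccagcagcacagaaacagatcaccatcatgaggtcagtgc
Rsad2, chr12:26456403-26456702, minus strand: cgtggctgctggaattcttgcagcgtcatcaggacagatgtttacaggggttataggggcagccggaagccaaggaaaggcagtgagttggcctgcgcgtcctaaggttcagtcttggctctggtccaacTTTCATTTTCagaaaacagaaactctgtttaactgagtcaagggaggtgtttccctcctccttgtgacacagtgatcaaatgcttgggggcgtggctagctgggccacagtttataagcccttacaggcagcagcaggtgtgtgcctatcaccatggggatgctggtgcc
Trim34a, chr7:104244207-104244506, plus strand: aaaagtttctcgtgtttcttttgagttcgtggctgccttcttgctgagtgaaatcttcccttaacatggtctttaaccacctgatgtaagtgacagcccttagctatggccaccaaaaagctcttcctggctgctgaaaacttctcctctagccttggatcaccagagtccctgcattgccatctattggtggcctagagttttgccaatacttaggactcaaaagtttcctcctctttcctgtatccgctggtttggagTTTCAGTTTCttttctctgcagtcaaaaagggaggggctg
Slfn5, chr11:82951852-82952151, plus strand: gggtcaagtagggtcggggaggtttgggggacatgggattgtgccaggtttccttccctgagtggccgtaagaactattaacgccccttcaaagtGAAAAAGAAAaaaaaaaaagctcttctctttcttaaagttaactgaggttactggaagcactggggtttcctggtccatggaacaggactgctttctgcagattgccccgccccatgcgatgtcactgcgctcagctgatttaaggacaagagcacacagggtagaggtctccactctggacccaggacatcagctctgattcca
Gbp3, chr3:142559794-142560093, plus strand: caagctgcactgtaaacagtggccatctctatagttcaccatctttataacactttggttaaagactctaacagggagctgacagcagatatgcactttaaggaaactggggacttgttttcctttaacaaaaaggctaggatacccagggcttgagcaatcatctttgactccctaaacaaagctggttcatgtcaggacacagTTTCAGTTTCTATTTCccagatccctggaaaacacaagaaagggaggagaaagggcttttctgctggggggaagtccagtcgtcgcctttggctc
Trim25, chr11:88999153-88999452, plus strand: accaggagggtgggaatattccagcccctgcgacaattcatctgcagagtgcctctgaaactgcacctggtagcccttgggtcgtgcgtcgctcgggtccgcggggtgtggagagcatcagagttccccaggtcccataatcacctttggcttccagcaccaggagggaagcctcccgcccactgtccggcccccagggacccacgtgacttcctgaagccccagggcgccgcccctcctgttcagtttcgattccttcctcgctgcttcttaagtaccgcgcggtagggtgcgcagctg

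In Ifit3 the cores began 156 and 122 bases before the start, and in its neighbour Ifit3b 188 and 154 bases before it. With the windows set against each other at a shift of 32 bases and without gaps, 201 of 268 bases were identical (75.0%). The windows hold runs of C of unequal length, past which the bases were compared out of register. The core of Rsad2 began 120 bases before the start and that of Slfn5 155 bases before it, while that of Trim34a lay 10 bases past the start. Gbp3 held a pair of overlapping cores 45 and 39 bases before its start, while its other window, not shown and further along the gene, held none. Trim25 and Cmpk2 were among the 14 matched genes whose windows held no such letters, as were Herc6, Samd9l, Xaf1, Sp100 and Lgals3bp. The gamma-activated site searched as TTCNNNGAA, a promoter element of genes induced by interferon gamma, stood in 5 of the 32 windows (15.6%) against 8.30% of all. The core of the hypoxia response element searched as ACGTG, which HIF dimers bind, stood in 2 of the 32 windows (6.25%), those of Oasl2 and Trim25, against 19.6% of all. A match of letters is a description of the window and not a measured binding site.

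Libraries held between 12.7 and 43.3 M (1 M is 1e6) read pairs assigned to genes, the lowest and the highest both in kidney with PT-2385. Markers fitted the organs: the summed level of the granulosa cell list was 1297 to 2086 CPM (read pairs per 1e6 after scaling within the organ) in ovary and 5.71 to 7.74 CPM in kidney, and the proximal tubule list summed to 18078 to 21666 CPM in kidney. In ovary the latter list summed to 4.72 to 5.63 CPM in 7 libraries and to 56.2 CPM in vehicle library 1, where the kidney protein gene Kap stood at 32.5 CPM. Ovary vehicle library 3 stood apart with 1390 CPM of nuclear RNAs such as Malat1, against 2376 to 3731 CPM in the other 7, and it is the library whose file carries another number than its label. Kidney PT-2385 library 3 has another flow-cell code in its file name than the rest.

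In ovary, the antiviral genes were lower with PT-2385 throughout the list. Together they summed to 1046, 867, 990 and 1153 CPM in vehicle libraries 1 to 4 and to 655, 627, 586 and 805 CPM in PT-2385 libraries 1 to 4 (means 1014 ± 119 and 668 ± 95.3, SD, n = 4), so that no ovary with PT-2385 reached the lowest vehicle library. All 36 log2 fold changes were negative, from −2.04 for Ifit3b to −0.13 for Trim25, with a median of −0.86. The median over all 18125 genes tested was −0.0028 and 50.7% of them were negative. Because whole ovary was sequenced, fewer cells of a type and less RNA per cell cannot be told apart.

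Gene by gene, 3 of the 36 passed an adjusted p of 0.05 (edgeR quasi-likelihood test, Benjamini-Hochberg over all genes), all lower: Trim34a, Parp14 and Cmpk2. Of all genes tested, 0.0441% were called lower. At an unadjusted p under 0.05, 33 of the 36 were lower against 7.39% of all genes, and in 25 of the 36 every PT-2385 library lay below every vehicle library, against 3.77% of all genes. The next smallest adjusted p was 0.0566, for Ifit3. The calls turned on single libraries. Without ovary vehicle library 1 or 4, or PT-2385 library 1, 2 or 3, edgeR called 0 of the 36. In each case 32 of 36 had an unadjusted p under 0.05. Of the 18364 to 18497 genes tested in these fits, 1323 to 2235 had one, in either direction. Without vehicle library 2, vehicle library 3 or PT-2385 library 4 edgeR called 19, 21 and 19. Over the whole table those 3 fits called 45, 478 and 41 genes lower, against 8 in the main fit. DESeq2 called 27 of the 36 (198 genes lower over the whole table) and limma-voom 1 (3 genes lower). The median log2 fold change stayed between −1.03 and −0.78 when any 1 library was left out.

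**Figure D1:**
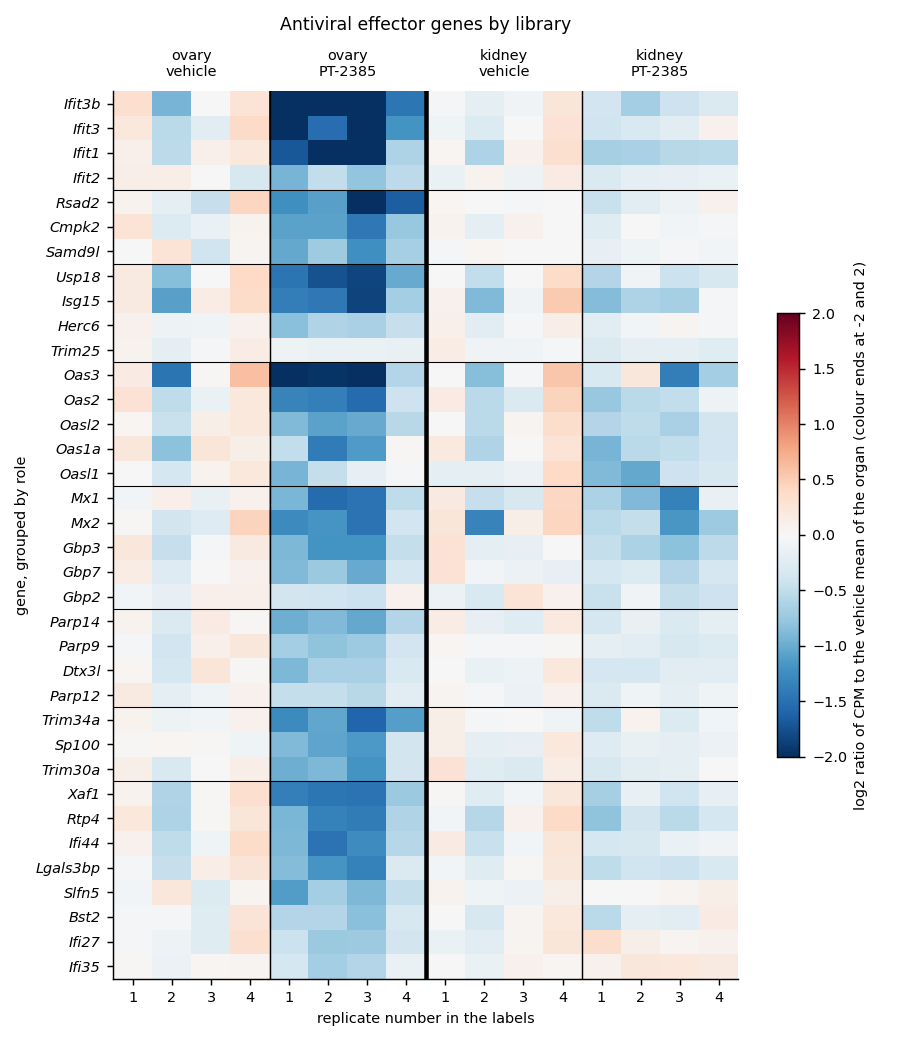
Colour gives the log2 ratio of a gene's CPM in a library to its vehicle mean in the same organ (scale from -2 to 2, blue lower, red higher), with genes as rows grouped by role and libraries as columns by organ, treatment and replicate number. The block of ovary PT-2385 is blue in nearly all cells, palest in library 4, and the column of vehicle library 2 is blue for many genes in both organs.

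In kidney the differences were smaller. The same genes summed to 991, 873, 935 and 1048 CPM in vehicle libraries 1 to 4 and to 790, 840, 835 and 885 CPM in PT-2385 libraries 1 to 4 (means 962 ± 75.0 and 838 ± 39.0, SD, n = 4), with PT-2385 library 4 above vehicle library 2. Of the 36 log2 fold changes 33 were negative, from −0.78 for Mx2 up to 0.18 for Ifi35, with a median of −0.26 (all genes 0.0063, 48.5% negative). Those above 0 were Slfn5, Ifi27 and Ifi35. Other RNAs were higher in the same kidneys. The 5 nuclear RNAs summed to 3113 to 3387 CPM with vehicle and 3474 to 3607 CPM with PT-2385, without overlap (0 called by edgeR, 2 higher at an unadjusted p under 0.05). All 8 endothelial markers had positive values, with a median of 0.14, and 1 was called, Cldn5 at 0.26 (adjusted p = 0.0346, edgeR), with 5 higher at an unadjusted p under 0.05. The part of either in the antiviral difference was not tested.

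In the kidney test 6 of the 36 were called, all lower: Gbp3, Lgals3bp, Parp9, Ifit3b, Trim25 and Gbp7. Kidney had many calls at large, and 3.81% of its 17763 tested genes were called lower. At an unadjusted p under 0.05, 21 of the 36 were lower and 1 (Ifi35) higher, against 12.5% of all genes lower, and 8 of the 36 showed groups that did not overlap, all lower, against 7.89% of all genes. Without kidney PT-2385 library 3, edgeR called Gbp3 alone, without library 4 Gbp3 and Lgals3bp, and without library 1 Gbp3, Parp9 and Lgals3bp. Over the whole table those fits called 183, 207 and 391 genes lower. A fit of all 16 libraries with 1 shared spread called 0 of the 36 in kidney, with 248 genes called lower over the whole table. At an unadjusted p under 0.05 it had 15 of the 36 and 3096 of all 19977 genes, in either direction. DESeq2 called 11 of the 36, with 949 of the 17763 genes called lower.

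The difference between the responses, ovary minus kidney, was tested as an interaction over all 16 libraries. It was negative for 33 of the 36 genes, with a median of −0.58 (all genes −0.0068), and positive for Gbp2 at 0.13, Trim25 at 0.12 and Oasl1 at 0.26. It was called for Trim34a, Cmpk2 and Slfn5, each with the lower response in ovary, where 0.025% of the 19977 genes tested were called in that direction. At an unadjusted p under 0.05 the count was 18 of 36, against 5.59% of all genes. These calls too turned on single libraries. Without ovary vehicle library 1 or 4, or ovary PT-2385 library 1, 2 or 3, edgeR called 0 of the 36. It also called 0 without kidney vehicle library 2 or 3, or kidney PT-2385 library 3 or 4. In all these fits 17 or 18 had an unadjusted p under 0.05. Of the 20261 to 20365 genes tested in them, 1837 to 2411 had one, in either direction. Without kidney vehicle library 4 or kidney PT-2385 library 1 edgeR called 1 of the 36. Without ovary PT-2385 library 4 it called 6, and without ovary vehicle library 3 it called 10. Over the whole table the fits with 6 and 10 calls had 12 and 299 genes called with the lower response in ovary. DESeq2 called 12 of the 36, with 120 such genes over the whole table.

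**Figure D2:**
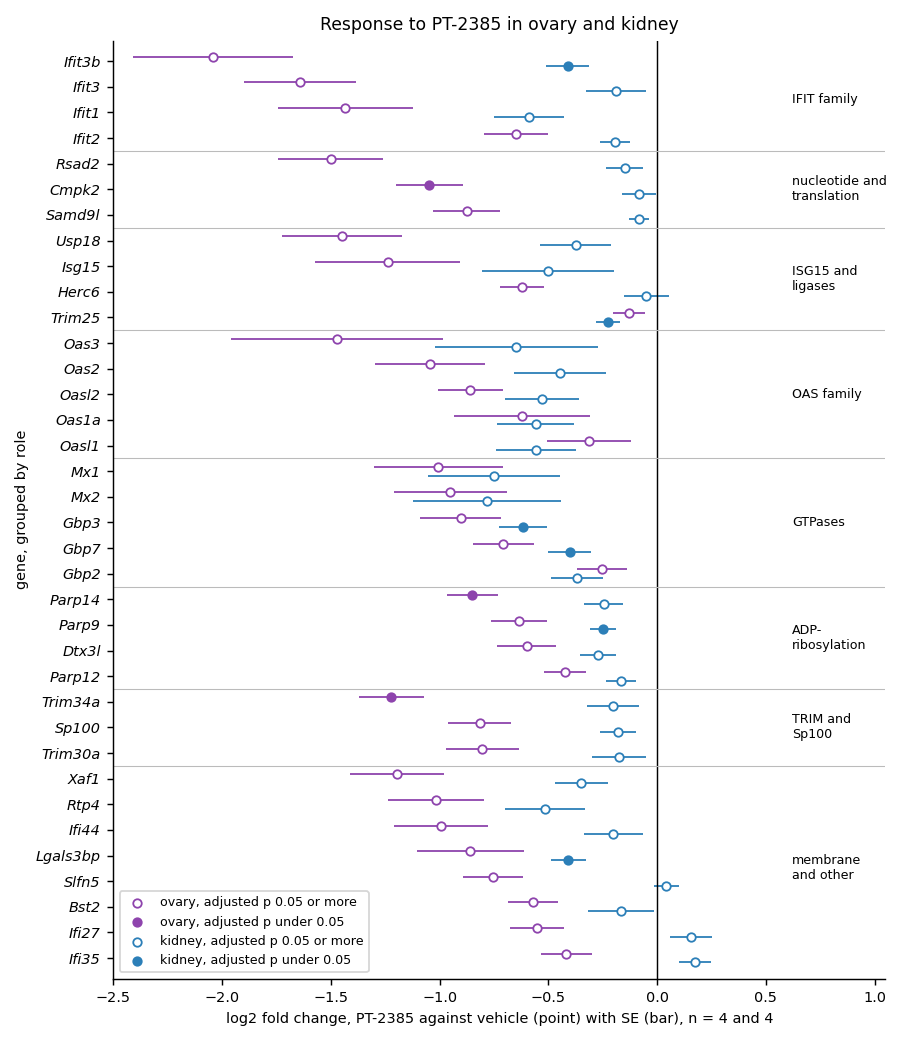
Points are log2 fold changes of PT-2385 against vehicle in ovary (purple) and kidney (blue) with bars of 1 SE, n = 4 libraries per group, for each gene grouped by role; filled points passed an adjusted p of 0.05. Ovary values lie from -2.04 to -0.13 and kidney values from -0.78 to 0.18, and the organs lie closest in the OAS family and the GTPases.

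The IFIT proteins bind viral RNA ends and block its translation, and their genes stand side by side on chromosome 19. All 4 were lower in ovary without overlap between groups, and none passed the adjusted threshold there. Ifit3 (chromosome 19, 34560931 to 34566131, GRCm39, as are all gene positions here) measured 6.83, 4.04, 5.03 and 7.66 CPM in the vehicle libraries and 1.48, 2.04, 1.17 and 2.57 CPM in the PT-2385 libraries in ovary. The PT-2385 libraries thus stood at 0.308 of the vehicle mean (log2 fold change −1.64 with SE 0.258 and adjusted p = 0.0566, edgeR). In kidney the groups of Ifit3 overlapped, with 41.4, 36.5, 44.1 and 54.1 CPM in the vehicle libraries and 33.3, 35.8, 38.2 and 46.5 CPM in the PT-2385 libraries (log2 fold change −0.19 with SE 0.138 and adjusted p = 0.454, edgeR).

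Ifit3b (chromosome 19, 34585370 to 34590801), a near copy of Ifit3, had the lowest log2 fold change of the list in ovary, on few reads. Its values there were 2.04, 0.848, 1.64 and 1.97 CPM in the vehicle libraries and 0.236, 0.386, 0.242 and 0.596 CPM in the PT-2385 libraries, with as few as 4 read pairs in a PT-2385 library, or 0.225 of the vehicle mean (log2 fold change −2.04 with SE 0.366 and adjusted p = 0.0609, edgeR). In kidney it was called lower, with 13.9, 12.5, 13.5 and 16.8 CPM in the vehicle libraries and 10.9, 8.79, 10.7 and 11.6 CPM in the PT-2385 libraries and no overlap (log2 fold change −0.41 with SE 0.0995 and adjusted p = 0.0262, edgeR). Reads that fit both copies make these values uncertain, since 51.2% of the stretches of 50 bases in Ifit3 transcripts also occur in Ifit3b. Ifit1 stood at 9.91 ± 2.06 CPM over the vehicle libraries against 3.52 ± 1.99 CPM over the PT-2385 libraries in ovary (log2 fold change −1.43 with SE 0.311 and adjusted p = 0.123, edgeR) and Ifit2 had the log2 fold change nearest 0 of the family, −0.65.

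A trio of genes acts on nucleotides and translation. Rsad2, or viperin, makes a chain-terminating nucleotide from CTP, Cmpk2 is the mitochondrial nucleotide kinase that supplies it and lies beside it on chromosome 12, and Samd9l halts translation in infected cells. Rsad2 (chromosome 12, 26492745 to 26506451) measured 8.05, 6.78, 5.603 and 10.3 CPM in the vehicle libraries and 3.31, 3.62, 1.61 and 2.45 CPM in the PT-2385 libraries in ovary, every PT-2385 library below every vehicle library (log2 fold change −1.50 with SE 0.243 and adjusted p = 0.0584, edgeR). In kidney its vehicle libraries were close together, with 3 PT-2385 libraries below and 1 above them: 33.4, 32.3, 31.8 and 32.5 CPM in the vehicle libraries and 23.9, 28.2, 30.3 and 34.4 CPM in the PT-2385 libraries (log2 fold change −0.15 with SE 0.0845 and adjusted p = 0.308, edgeR).

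Cmpk2 (chromosome 12, 26519203 to 26529836) fell in ovary, where it measured 14.2, 9.78, 10.8 and 12.4 CPM in the vehicle libraries and 5.61, 5.63, 4.36 and 6.99 CPM in the PT-2385 libraries. PT-2385 libraries were at 0.479 of the vehicle mean and did not overlap it (log2 fold change −1.05 with SE 0.154 and adjusted p = 0.0395, edgeR). In kidney its groups overlapped, with 19.4, 16.3, 19.6 and 18.6 CPM in the vehicle libraries and 15.6, 18.3, 17.8 and 18.1 CPM in the PT-2385 libraries (log2 fold change −0.08 with SE 0.0771 and adjusted p = 0.552, edgeR). The responses differed (interaction −0.95, SE 0.174, adjusted p = 0.0372, edgeR). For Rsad2 the interaction was −1.33, SE 0.267, adjusted p = 0.0598, short of the threshold.

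Samd9l (chromosome 6, 3372257 to 3399572) measured 32.3, 39.5, 24.7 and 33.6 CPM in the vehicle libraries and 15.9997, 19.97, 13.97 and 20.5 CPM in the PT-2385 libraries in ovary, again without overlap (log2 fold change −0.88 with SE 0.152 and adjusted p = 0.0649, edgeR). It was the gene of the list with the most reads in kidney, 169, 177, 173 and 172 CPM in the vehicle libraries and 154, 163, 169 and 166 CPM in the PT-2385 libraries (log2 fold change −0.08 with SE 0.0451 and adjusted p = 0.289, edgeR), and made up 17.96% of the summed vehicle CPM of the 36 genes. Its kidney groups overlapped and lay within a narrow band.

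Isg15 encodes the ubiquitin-like modifier, Usp18 the protease that removes it and damps receptor signalling, Herc6 the mouse ligase that attaches it, and Trim25 a ligase that activates the RNA sensor RIG-I. None of the 4 was called in ovary. Herc6 (chromosome 6, 57557985 to 57641617) measured 13.7, 11.97, 12.2 and 13.6 CPM in the vehicle libraries and 7.203, 8.44, 8.196 and 9.31 CPM in the PT-2385 libraries in ovary, with no overlap (log2 fold change −0.62 with SE 0.101 and adjusted p = 0.0584, edgeR). In kidney it measured 7.999, 6.37, 7.26 and 8.13 CPM in the vehicle libraries and 6.399, 7.14, 7.77 and 7.22 CPM in the PT-2385 libraries, with groups that overlapped (log2 fold change −0.05 with SE 0.104 and adjusted p = 0.819, edgeR).

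Trim25 (chromosome 11, 88890202 to 88911119) had the log2 fold change nearest 0 of the list in ovary. It carried the most reads of the 36 in ovary, where it measured 171, 144, 159 and 182 CPM in the vehicle libraries and 152, 150.0, 149 and 148 CPM in the PT-2385 libraries. Vehicle library 2 was below all PT-2385 libraries, and the test was not passed (log2 fold change −0.13 with SE 0.0741 and adjusted p = 0.481, edgeR). In kidney Trim25 was called lower, with 101, 86.9, 87.1 and 88.5 CPM in the vehicle libraries and 74.4, 79.99, 79.1 and 77.3 CPM in the PT-2385 libraries and no overlap (log2 fold change −0.23 with SE 0.0553 and adjusted p = 0.0268, edgeR); vehicle library 1 stood above the other 3. Usp18 was at 0.360 of its vehicle mean in ovary without overlap (log2 fold change −1.45 with SE 0.274 and adjusted p = 0.0748, edgeR), and Isg15 at 0.415 with overlap (log2 fold change −1.24 with SE 0.332 and adjusted p = 0.213, edgeR), its lowest vehicle library again being number 2.

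The OAS enzymes make the messenger 2′-5′ oligoadenylate, which activates the nuclease RNase L, and the OASL proteins are relatives of which Oasl1 represses Irf7 translation. All 5 genes were negative in both organs and none was called in either. In ovary 1 of the 5, Oasl2, had groups without overlap, at 49.2 ± 9.07 CPM over the vehicle libraries against 27.02 ± 4.55 CPM over the PT-2385 libraries (log2 fold change −0.86 with SE 0.149 and adjusted p = 0.0652, edgeR). In kidney 1 of the 5, Oasl1, had groups without overlap, at 3.04 ± 0.659 CPM over the vehicle libraries against 1.96 ± 0.466 CPM over the PT-2385 libraries (log2 fold change −0.56 with SE 0.184 and adjusted p = 0.0814, edgeR). Ovary log2 fold changes ran from −1.47 for Oas3, measured from as few as 2 read pairs a library, to −0.32 for Oasl1, and kidney ones from −0.65 to −0.45. The interaction of these genes ran from −0.82 to 0.26, and none of the 5 reached an unadjusted p under 0.05.

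The GTPases include Mx1 and Mx2, which trap viral ribonucleoprotein, and the guanylate-binding proteins, which coat pathogen vacuoles and are also induced by interferon gamma. This was the role with the most kidney calls, 2 of 5. Gbp3 (chromosome 3, 142265813 to 142278970) measured 42.6, 30.7, 31.1 and 34.97 CPM in the vehicle libraries and 25.1, 22.4, 19.6 and 24.3 CPM in the PT-2385 libraries in kidney, with all PT-2385 libraries lower (log2 fold change −0.62 with SE 0.111 and adjusted p = 0.0116, edgeR). Gbp3 was called there in 17 of 18 alternative settings, 1 of which repeats another. In ovary it measured 31.4, 19.5, 26.4 and 30.4 CPM in the vehicle libraries and 14.5, 11.7, 11.8 and 19.3 CPM in the PT-2385 libraries, also without overlap, although library 4 with PT-2385 came close to vehicle library 2 (log2 fold change −0.90 with SE 0.186 and adjusted p = 0.115, edgeR).

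Gbp7 (chromosome 3, 142236103 to 142255910) was also called lower in kidney without overlap, with 27.4, 21.6, 20.7 and 19.9 CPM in the vehicle libraries and 17.5, 18.4, 14.9 and 17.7 CPM in the PT-2385 libraries (log2 fold change −0.40 with SE 0.0990 and adjusted p = 0.0301, edgeR). Its ovary values were 18.02, 13.7, 16.2 and 17.4 CPM in the vehicle libraries and 8.86, 9.72, 8.11 and 12.9 CPM in the PT-2385 libraries, without overlap (log2 fold change −0.71 with SE 0.139 and adjusted p = 0.0766, edgeR). Gbp2 had the value nearest 0 of the 5 in ovary, −0.25, with overlapping groups. For Mx1 and Mx2 the log2 fold changes were −1.01 (adjusted p = 0.214) and −0.95 (adjusted p = 0.192) in ovary, and −0.75 (adjusted p = 0.147) and −0.78 (adjusted p = 0.203) in kidney (edgeR), and Mx1 rested on 0.671 ± 0.0538 CPM in ovary with vehicle. No interaction among the 5 reached an unadjusted p under 0.05.

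Parp9, Parp12 and Parp14 transfer ADP-ribose, and Dtx3l is the ubiquitin ligase that works as a pair with Parp9 and shares its promoter region on chromosome 16. Parp14 (chromosome 16, 35653244 to 35691914), a mono-ADP-ribosyltransferase, fell in ovary, where it measured 25.04, 19.7, 26.7 and 24.3 CPM in the vehicle libraries and 12.2, 12.9, 11.7 and 15.99 CPM in the PT-2385 libraries. All PT-2385 libraries were lower, at 0.551 of the vehicle mean (log2 fold change −0.85 with SE 0.118 and adjusted p = 0.0305, edgeR). In kidney the difference was smaller and the groups overlapped, with 31.9, 25.7, 24.3 and 32.8 CPM in the vehicle libraries and 22.8, 25.98, 23.4 and 25.2 CPM in the PT-2385 libraries (log2 fold change −0.25 with SE 0.0911 and adjusted p = 0.119, edgeR).

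Parp9 (chromosome 16, 35758840 to 35792975) was called in kidney, where vehicle libraries were nearly level: 24.3, 23.3, 23.1 and 24.3 CPM in the vehicle libraries and 20.8, 20.6, 19.1 and 19.7 CPM in the PT-2385 libraries (log2 fold change −0.25 with SE 0.0597 and adjusted p = 0.0254, edgeR). In ovary it measured 34.97, 27.2, 38.01 and 41.6 CPM in the vehicle libraries and 22.2, 20.3, 21.4 and 27.2 CPM in the PT-2385 libraries, and PT-2385 library 4 just passed vehicle library 2 (log2 fold change −0.63 with SE 0.129 and adjusted p = 0.0921, edgeR). The log2 fold changes of its partner Dtx3l were −0.60 (adjusted p = 0.120) in ovary and −0.27 (adjusted p = 0.0641) in kidney (edgeR), close to the Parp9 values. The exons of the pair overlap on opposite strands by 10.3% of Parp9 and 6.41% of Dtx3l.

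Trim34a and Trim30a belong to a cluster of tripartite motif genes on chromosome 7, and Sp100 is a core protein of nuclear bodies that restrain viral DNA. Trim34a (chromosome 7, 103893664 to 103911441) had the smallest p of the list in ovary, where it measured 5.21, 4.66, 4.79 and 5.29 CPM in the vehicle libraries and 2.07, 2.43, 1.66 and 2.32 CPM in the PT-2385 libraries. The PT-2385 libraries were at 0.425 of the vehicle mean (log2 fold change −1.22 with SE 0.148 and adjusted p = 0.0187, edgeR). The gene was called in 13 of 18 alternative settings, 1 of which repeats another. In kidney it measured 6.21, 5.59, 5.77 and 5.38 CPM in the vehicle libraries and 4.02, 6.04, 4.77 and 5.53 CPM in the PT-2385 libraries with overlap (log2 fold change −0.20 with SE 0.121 and adjusted p = 0.334, edgeR), and the responses differed (interaction −1.01, SE 0.188, adjusted p = 0.0372, edgeR).

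Trim34a has a near copy, Trim34b, which shares 39.8% of its stretches of 50 bases and is named here for that reason, with its values known. Trim34b measured 2.07, 2.35, 1.39 and 2.41 CPM in the vehicle libraries and 1.06, 1.16, 0.727 and 1.29 CPM in the PT-2385 libraries in ovary (log2 fold change −0.93 with SE 0.241 and adjusted p = 0.177, edgeR), without overlap and on fewer reads. Another 23.5% of the exon bases of Trim34a lie opposite the gene model Gm47248, and reads of the pair could not be separated because no strand option was recorded. Sp100 (chromosome 1, 85577709 to 85637719) measured 17.1, 17.2, 16.9 and 15.8 CPM in the vehicle libraries and 9.03, 8.098, 7.55 and 13.01 CPM in the PT-2385 libraries in ovary, where the vehicle libraries were close together (log2 fold change −0.81 with SE 0.145 and adjusted p = 0.0609, edgeR). In kidney it measured 46.1, 37.1, 38.02 and 49.7 CPM in the vehicle libraries and 35.7, 38.4, 37.6 and 39.3 CPM in the PT-2385 libraries, with overlap (log2 fold change −0.18 with SE 0.0836 and adjusted p = 0.209, edgeR). Trim30a had −0.80 (adjusted p = 0.0943) in ovary and −0.18 (adjusted p = 0.415) in kidney (edgeR).

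The last 8 genes act at membranes or in other ways. Bst2, or tetherin, ties budding virions to the cell surface. Bst2 (chromosome 8, 71986899 to 71990100) measured 137, 136, 118 and 166 CPM in the vehicle libraries and 92.9, 92.6, 78.1 and 111 CPM in the PT-2385 libraries in ovary, without overlap (log2 fold change −0.57 with SE 0.116 and adjusted p = 0.0921, edgeR), and 17.6, 14.04, 18.2 and 20.4 CPM in the vehicle libraries and 12.1, 15.5, 15.2 and 19.7 CPM in the PT-2385 libraries in kidney, where the groups overlapped (log2 fold change −0.17 with SE 0.150 and adjusted p = 0.556, edgeR).

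Ifi27 (chromosome 12, 103400470 to 103406498), which encodes a small membrane protein, had log2 fold changes of opposite sign in the organs, neither of which passed. It measured 64.1, 61.6, 55.7 and 82.6 CPM in the vehicle libraries and 49.1, 39.5, 40.1 and 51.4 CPM in the PT-2385 libraries in ovary (log2 fold change −0.55 with SE 0.126 and adjusted p = 0.124, edgeR), without overlap. In kidney it measured 26.4, 24.9, 30.1 and 34.2 CPM in the vehicle libraries and 36.8, 31.4, 29.97 and 30.7 CPM in the PT-2385 libraries, with PT-2385 library 1 the highest of the 8 (log2 fold change 0.15 with SE 0.0961 and adjusted p = 0.359, edgeR). The interaction was −0.69, SE 0.174, adjusted p = 0.121. Ifi35 had the same signs, −0.42 (adjusted p = 0.197) in ovary and 0.18 (adjusted p = 0.160) in kidney (edgeR).

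Slfn5 (chromosome 11, 82842928 to 82855666), a Schlafen family protein, showed the third called difference between the organs. In ovary it measured 17.02, 20.6, 14.6 and 18.2 CPM in the vehicle libraries and 8.09, 10.95, 9.41 and 12.6 CPM in the PT-2385 libraries, each PT-2385 library below each vehicle library (log2 fold change −0.76 with SE 0.138 and adjusted p = 0.0652, edgeR). In kidney it measured 78.9, 70.98, 69.3 and 81.7 CPM in the vehicle libraries and 74.8, 75.3, 78.1 and 81.5 CPM in the PT-2385 libraries, within the vehicle range in all 4 (log2 fold change 0.04 with SE 0.0579 and adjusted p = 0.708, edgeR). The interaction was −0.78, SE 0.149, adjusted p = 0.0391 (edgeR). It was called in 13 of 25 alternative settings, and upper-quartile scaling was among those that ended the call.

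Lgals3bp (chromosome 11, 118283577 to 118292918), a secreted galectin-binding protein that is abundant in serum, was called in kidney, with 83.7, 73.3, 87.8 and 101 CPM in the vehicle libraries and 60.96, 65.3, 64.3 and 70.2 CPM in the PT-2385 libraries and no overlap (log2 fold change −0.41 with SE 0.0824 and adjusted p = 0.0158, edgeR). In ovary the difference was larger and the libraries scattered more: 123, 90.8, 137 and 149 CPM in the vehicle libraries and 68.7, 55.4, 48.9 and 103 CPM in the PT-2385 libraries, with PT-2385 library 4 above vehicle library 2 (log2 fold change −0.86 with SE 0.245 and adjusted p = 0.232, edgeR). The other 3 did not pass in either organ. In ovary Xaf1 stood at −1.20 (adjusted p = 0.0673), Rtp4 at −1.02 (adjusted p = 0.122) and Ifi44 at −0.99 (adjusted p = 0.116) (edgeR). In kidney they ran from −0.51 for Rtp4 to −0.20 for Ifi44.

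**Figure D3:**
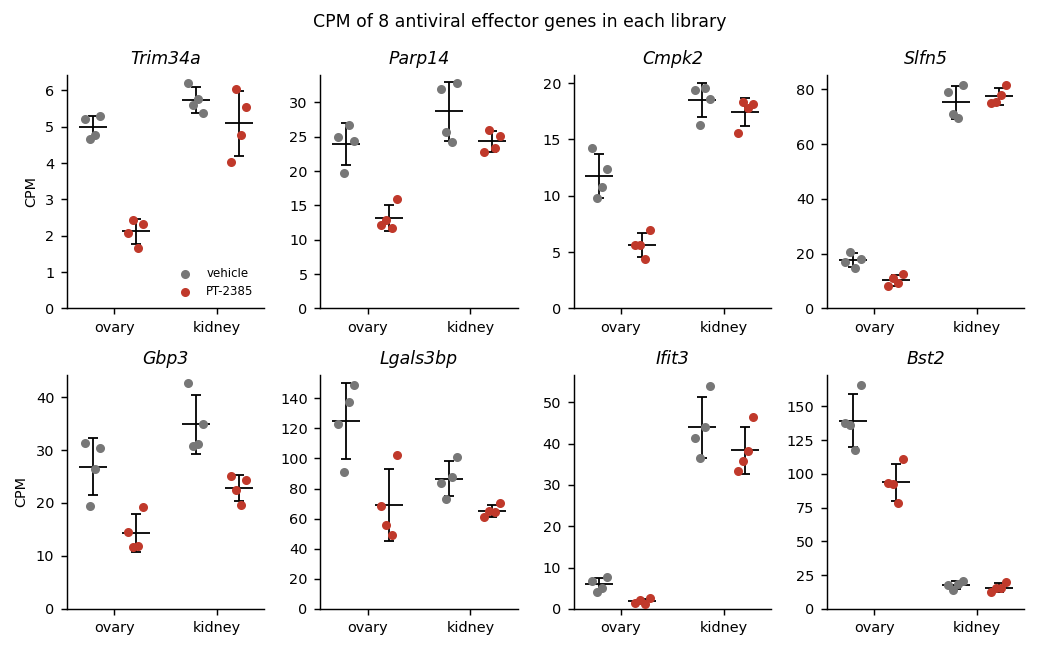
Each panel shows the CPM of 1 gene in every library, grey for vehicle and red for PT-2385, with the group mean and SD in black (n = 4, axes from 0). The groups are apart in ovary for 7 of the 8 genes (Lgals3bp overlaps) and in kidney for Gbp3 and Lgals3bp.

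Per length of exon the levels of the 36 genes spanned a wide range in vehicle libraries. In ovary Bst2 led with 176 ± 24.9 CPM per kb (SD, n = 4), followed by Ifi27 at 64.4 ± 11.3 and Lgals3bp at 53.7 ± 10.8, the latter 2 within their spread of each other, and Trim25 at 28.5 ± 2.82. In kidney the leaders were Lgals3bp at 37.1 ± 4.97, Samd9l at 32.4 ± 0.619, Ifi27 at 28.2 ± 4.07, Ifit3 at 25.2 ± 4.24 and Bst2 at 22.2 ± 3.34 CPM per kb, of which each neighbouring pair lay within its spread. Oas3 and Mx1 were lowest in both organs, at 0.190 and 0.198 CPM per kb in ovary and 0.114 and 0.258 in kidney. RNA was isolated by different methods in the organs, so levels were not tested between them.

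Same-numbered organs were then set side by side. For each library the log2 CPM of each of the 36 genes was set against its vehicle mean in that organ, and the median over genes was taken. In vehicle libraries 1 to 4 it was 0.10, −0.31, 0.01 and 0.21 in ovary and 0.05, −0.21, −0.03 and 0.23 in kidney. The order was the same in both organs, number 4 above 1 above 3 above 2. With PT-2385 it was −0.89, −1.04, −1.17 and −0.45 in ovary and −0.38, −0.20, −0.30 and −0.13 in kidney. Here number 4 was highest in both organs and the others changed places, so that 5 of the 8 numbers held the same rank in both organs.

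**Figure D4:**
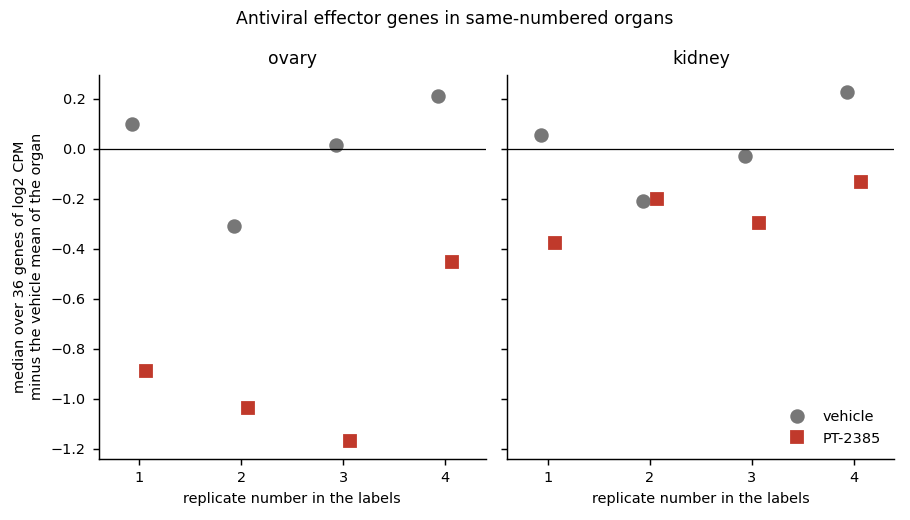
The vertical axis is the median over the 36 genes of the log2 CPM relative to its vehicle mean in that organ, the horizontal axis the replicate number, with circles for vehicle and squares for PT-2385. Number 2 is the lowest vehicle library and number 4 the highest library of each treatment in both organs.

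The same values were then ranked for each gene alone. These counts add no separate support to the medians, and genes of 1 library are not independent of each other. Vehicle library 2 was the lowest of the 4 vehicle libraries in both organs for 21 of the 36 genes (58.3%), against 7.08% of the 15816 genes tested in both organs. Vehicle library 4 was the highest in both organs for 14 of the 36 (38.9%, against 4.62%), and PT-2385 library 4 the highest of its group in both organs for 17 of the 36 (47.2%, against 7.37%). The lowest PT-2385 library was most often number 3 in ovary (20 genes) and number 1 in kidney (24 genes). Over all genes, the deviations of same-numbered ovaries and kidneys from their group means correlated only weakly, from −0.043 to 0.091. Within each treatment the own number still gave the highest correlation for 3 of 4. The labels do not say what a number marks, so whether the likeness of the 36 genes comes from a shared mouse was not tested.

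Low values in vehicle library 2 ran through most of the list. In ovary 31 of the 36 genes were below their vehicle mean in it, and in kidney 34 of 36. The 11 genes whose ovary groups overlapped were Isg15, Oas1a, Oas2, Oas3, Oasl1, Gbp2, Rtp4, Parp9, Dtx3l, Trim25 and Lgals3bp. In ovary PT-2385 libraries 1, 2 and 3 all 36 were below the vehicle mean, and in library 4 it was 34. In the kidney PT-2385 libraries it was 34, 31, 32 and 28.

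Further up the pathway, interferon transcripts themselves were close to nothing. The 21 interferon genes listed together had 32 read pairs in the 4 vehicle ovaries and 21 in the 4 PT-2385 ovaries, and 9 and 6 in kidney, and none had enough to be tested. Most ovary reads were from Ifnk (13 and 11) and Ifnl3 (16 and 5), and Ifnb1 had 0 in all 8 ovary libraries. At these depths a change in interferon transcripts was not detectable.

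Of 22 receptors and signalling proteins tested in kidney, 1 was called, Irf5, a factor that turns on inflammatory genes, at −0.56 (adjusted p = 0.00865, edgeR). Irf7, the factor that amplifies interferon, had −0.75 there (adjusted p = 0.0507, edgeR). In ovary Irf9, the DNA-binding part of ISGF3, had −0.59 (adjusted p = 0.0722, edgeR).

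Of the sensors of foreign nucleic acid, 3 of 18 were called in ovary, all lower: Eif2ak2, Ddx60 and Ifi204, at −0.80, −1.24 and −0.70. Their median was −0.48, and in kidney 1 of 17 was called, Ifih1, the RNA sensor MDA5, at −0.32 (adjusted p = 0.0216, edgeR), with a median of −0.17. A further list of 51 genes known to be induced by interferon, none of them among the 36, had 50 tested in each organ. In ovary 46 of the 50 were negative and 0 were called by edgeR (30 lower at an unadjusted p under 0.05), with a median of −0.39, while in kidney 44 were negative and 5 were called lower, Gbp4, Gbp6, Gbp9, Irgm2 and Slfn9, with a median of −0.15. Among 13 genes that interferon gamma prefers, 10 could be tested in ovary and 12 in kidney, and 0 were called in either (edgeR, 0 and 3 lower at an unadjusted p under 0.05). The medians were −0.21 and −0.17. Of 15 class I antigen presentation genes 0 were called in ovary (edgeR, 3 lower at an unadjusted p under 0.05, median −0.13) and 1 in kidney, H2-T23 at −0.22.

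Cell type markers give the setting of these values. The summed level of 12 macrophage markers was 168 to 227 CPM with vehicle and 156 to 196 CPM with PT-2385 in ovary. There 9 of 12 log2 fold changes were negative with a median of −0.15, and 0 were called (edgeR, 2 lower at an unadjusted p under 0.05). In kidney the sums were 143.4 to 160.1 CPM with vehicle and 125.0 to 143.2 CPM with PT-2385, just without overlap. There 11 of 12 were negative with a median of −0.12, and Csf1r was called lower at −0.27. The highest macrophage sum in ovary, 227 CPM, was that of vehicle library 2, which had the lowest antiviral sum of the 4 vehicle libraries. Plasmacytoid dendritic cells are the body's main makers of interferon. Of 8 markers listed for them, 5 were tested in ovary with 0 called (edgeR, 1 lower at an unadjusted p under 0.05), and the 8 summed to 33.3 to 39.5 CPM with vehicle and 38.7 to 40.9 CPM with PT-2385. In kidney 6 were tested and 1 was called, Cox6a2, higher at 1.00 (adjusted p = 0.0169, edgeR). The kidney sum, 2148 to 2720.3 CPM with vehicle and 2513 to 2726 CPM with PT-2385, was nearly all Klk1, a kallikrein of kidney tubules. Siglech, the marker that defines these cells, had too few reads to be tested, at 0.0590 to 0.163 CPM in ovary and 0.112 to 0.393 CPM in kidney, and none of the 8 was at 0 in all libraries. The 6 conventional dendritic cell markers summed to 34.9 to 40.8 CPM with vehicle and 31.6 to 35.5 CPM with PT-2385 in ovary, and to 25.3 to 26.7 CPM against 27.03 to 28.9 CPM in kidney, where the PT-2385 libraries were all higher, and 0 were called in either organ (edgeR, 1 lower in ovary and 1 higher in kidney at an unadjusted p under 0.05). T cell and NK cell markers summed to at most 10.1 and 2.58 CPM in ovary.

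In ovary the granulosa cell list stood higher with PT-2385 in 3 of 4 libraries. It summed to 1360, 1450, 1506 and 1371 CPM in vehicle libraries 1 to 4 and to 2086, 1745, 1806 and 1297 CPM in PT-2385 libraries 1 to 4, so that the PT-2385 library with the lowest granulosa sum, number 4, was the one with the highest antiviral level. None of the 7 granulosa genes was called by edgeR (2 at an unadjusted p under 0.05, 1 in each direction). Their median log2 fold change was 0.07, with 2 of the 7 negative, so the sums do not stand for each gene of the list. Endothelial markers summed to 605 to 759 CPM with vehicle and 568 to 626 CPM with PT-2385 in ovary, where 7 of 8 log2 fold changes were negative with a median of −0.16 and 0 were called (edgeR, 3 lower at an unadjusted p under 0.05). The part of these cell types in the antiviral difference was not tested.

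Reads shared between genes limit some values. Of the 36 genes 12 share exon bases with another gene model, most for Herc6 (26.6%, Gm45193 on the same strand), Trim34a (23.5%), Ifi35 (17.4%) and Rtp4 (15.2%). By sequence Oas1a shares 57.6% of its stretches of 50 bases with Oas1g, which stood at −0.60 (ovary) and −0.65 (kidney) and passed in neither (edgeR adjusted p = 0.615 and 0.233). For Oas1a, Ifit3, Ifit3b and Trim34a the split of reads between copies is therefore uncertain.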

How the data were processed

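RNA of whole ovary and whole kidney was sequenced from stranded polyA libraries; RNA came from a column kit for ovary but from Trizol for kidney, per the labels' protocols. The deposited counts are read pairs for each gene, which the authors obtained with featureCounts 2.0.6 over exons of GENCODE M27, with no strand option, per the file headers. FastQC, STAR and GRCm39 are named in the submitters' processing notes, and the versions of both tools are not given in the sources used here. Gene symbols were matched by identifier from GENCODE M21 (52083 of 55359), and copies were compared on its transcripts.

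Each organ was fitted alone with edgeR 4.0.16 (R 4.3.3, quasi-likelihood, robust, TMM, filterByExpr at count 10 and total 15), and the interaction over all 16 libraries. All 36 genes passed the filter in each comparison. P-values were adjusted by Benjamini-Hochberg over all genes tested and called under 0.05. CPM use TMM within the organ, and library medians use log2 CPM with a prior count of 2. The members and lists were chosen with earlier results of these data known. Values by library are given for genes called in any comparison, the smallest p (8 ovary, 4 kidney, 4 interaction), and the 3 highest levels per kb in each organ, 17 in all. Of the other lists, called genes and up to 2 with the smallest p are named, besides those that a count needs. The count of calls among receptors and signalling proteins in ovary is not reported here. Alternatives were other scalings, DESeq2 1.42.0, limma-voom 3.58.1, the legacy test, other filters, a replicate block, a fit of all 16 libraries and libraries left out. The fits were tested on simulated data. Figures used matplotlib 3.10.9.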

Additional observations from a re-analysis of the deposited data

Results flagged for a closer look

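Among 148 groups of 4 libraries examined (each gene, and the median over genes, in each organ and treatment), 7 had 1 library apart from the other 3 by Dixon's criterion, and chance flags about 1 group in 20. In ovary with PT-2385, library 4 was the high one for Oas2 at 7.46 CPM (3.43 to 3.96 in the other 3), for Gbp2 at 55.8 CPM (38.6 to 40.7) and for Xaf1 at 7.37 CPM (4.44 to 4.78). In ovary with vehicle, library 2 was the low one for Oas1a at 1.96 CPM (3.76 to 4.09). In kidney with vehicle, library 4 was the high one for Oasl1 at 4.03 CPM (2.67 to 2.80) and library 1 for Trim25 at 101 CPM (86.9 to 88.5). In kidney with PT-2385, library 2 was the high one for Gbp2 at 10.8 CPM (8.16 to 8.49).

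In the interaction test of edgeR, 3 genes had responses to PT-2385 that differed between ovary and kidney (ovary minus kidney, log2). They were Trim34a at −1.01, Cmpk2 at −0.95 and Slfn5 at −0.78. In each, all 4 ovaries with PT-2385 lay below all 4 with vehicle while the kidney groups overlapped.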

How the results depend on the processing

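The median log2 fold change of the 36 genes moved by less than the spread between replicates in all 3 comparisons under every alternative run. The likeness of same-numbered organs stayed at 5 of 8 with the mean over genes and with a prior count of 0.5. Its other alternative, genes that pass the filter in both organs, could not differ, since all 36 pass. The counts of calls moved. In ovary the genes called over the whole table were 322 with DESeq2, 3 with limma-voom, 63 with no filter, 5 with the filter at 1 CPM, 364 in the fit of all 16 libraries, 1060 without both libraries with deviating file names, and 0 to 1060 with 1 library left out. The antiviral genes called there were 27, 1 and 8 with DESeq2, limma-voom and no filter, 26 in the fit of all 16, 21 without both libraries and 0 to 21 with 1 left out. In kidney the fit of all 16 called 307 genes and 0 antiviral ones, DESeq2 1468 and 11, and the fit without both libraries 231 and 1. With 1 library left out the range was 231 to 1403 and 1 to 8. Within an organ the fit without both libraries leaves out only 1. It therefore repeats the fit without vehicle library 3 in ovary and without PT-2385 library 3 in kidney. For the interaction the genes called were 20 with median-ratio and 16 with upper-quartile scaling, 304 with DESeq2, 50 with no filter, 344 without both libraries and 0 to 759 with 1 left out. Of the antiviral genes DESeq2 called 12 there, the fit without both libraries 6, and fits with 1 left out 0 to 10. With 1 library left out the change of Herc6 in kidney ran from −0.12 to 0.000567, turning sign without PT-2385 replicate 1. The causes were not tested. Low counts limit Oas3, Mx1 and Ifit3b.

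The labels do not say that numbers pair libraries. For that reason the numbers were not taken to pair. Deviations correlated by 0.021 to 0.078 between ovary and kidney with vehicle and by −0.043 to 0.091 with PT-2385. Between the treatments they correlated by −0.172 to 0.236 in ovary and by −0.064 to 0.052 in kidney. Own numbers correlated best for 3 of 4 in each of the first 2 sets and 2 of 4 in the others. A replicate block gave 398 genes and 31 antiviral ones in ovary, 1270 and 13 in kidney, and 17 and 5 for the interaction.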
